A study of Mus musculus with 5 samples.

Results

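Klf2, Klf4 and Klf5 are Krüppel-like factor genes, and the peaks of V5-tagged KLF5 around them in mouse embryonic stem (ES) cells are described here. The members were every peak of the deposited V5-KLF5 list whose summit lay inside one of the 3 genes or within 100 kb of its ends in the mm10 build. They numbered 33 of the 45378 peaks in the list, with 13 at Klf2, 9 at Klf4 and 11 at Klf5. The data came from chromatin immunoprecipitation followed by sequencing (ChIP-seq), which counts DNA fragments that an antibody pulls down with a protein cross-linked to them. Wild-type ES cells that overexpressed V5-KLF5 gave an anti-V5 immunoprecipitate, a normal mouse IgG immunoprecipitate and input DNA. Untagged wild-type ES-D3 cells, an established mouse ES line, gave an anti-V5 immunoprecipitate and input DNA as a control. Each of the 5 groups was 1 library, so no value has a replicate check and no test between groups was possible. The sources used here give neither the promoter that drove V5-KLF5 nor whether the cells were 1 clone, and an overexpressed protein can occupy sites that the native level does not. For the untagged control the label names ES-D3 while the run name in the file header names another ES line, JM8.N4.

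The 3 proteins belong to a family of zinc-finger transcription factors that recognise GC-rich sequence, including the CACCC box and the GC box. In mouse ES cells KLF2, KLF4 and KLF5 share target genes and can partly replace each other in keeping the naive state, in which cells self-renew and can form every tissue of the embryo. Klf4 is a target of leukaemia inhibitory factor acting through STAT3, KLF4 is also one of the classical reprogramming factors, and KLF5 is needed in the early embryo for the inner cell mass and the trophectoderm. The lists address where tagged KLF5 was found at its own gene and at the genes of its closest partners.

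Promoter sequences were available for 2 of the 3 members in the RefSeq table, which uses GRCm38.p6 (mm10). The 250 bases before the transcription start are printed 5′ to 3′ on the strand of each gene, because these are the windows against which the promoter peaks are described below. The window of Eps15l1, the neighbour of Klf2 whose promoter carried a peak inside the Klf2 region, is shown for comparison. Capitals mark every GC box, written GGGCGG on the gene's strand or CCGCCC where it lies on the other strand. The windows are chr8:72318812-72319061 on the plus strand for Klf2, chr4:55532476-55532725 on the minus strand for Klf4 and chr8:72421475-72421724 on the minus strand for Eps15l1.
Klf2: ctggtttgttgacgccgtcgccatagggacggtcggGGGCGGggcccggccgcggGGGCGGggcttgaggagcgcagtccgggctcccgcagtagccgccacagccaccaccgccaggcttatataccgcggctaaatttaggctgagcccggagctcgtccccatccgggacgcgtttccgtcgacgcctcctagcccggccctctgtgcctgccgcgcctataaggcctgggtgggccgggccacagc
Klf4: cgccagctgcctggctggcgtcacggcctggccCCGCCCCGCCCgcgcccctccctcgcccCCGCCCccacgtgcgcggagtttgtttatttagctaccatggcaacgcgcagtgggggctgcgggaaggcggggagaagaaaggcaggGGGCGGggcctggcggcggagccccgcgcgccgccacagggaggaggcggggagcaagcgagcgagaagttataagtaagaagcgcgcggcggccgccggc
Eps15l1: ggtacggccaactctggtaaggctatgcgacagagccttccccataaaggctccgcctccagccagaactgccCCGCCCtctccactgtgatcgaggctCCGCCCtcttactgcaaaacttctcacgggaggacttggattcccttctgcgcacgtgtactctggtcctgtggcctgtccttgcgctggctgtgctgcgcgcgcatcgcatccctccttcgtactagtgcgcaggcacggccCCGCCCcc

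The Klf2 window held 2 GC boxes, at 195 and 214 bases before the start, and its GC content was 71.2%. The Klf4 window held 4 GC boxes over both strands, 2 of them overlapping, and its GC content was 74.0%. That of Eps15l1 held 3 GC boxes with a GC content of 63.2%. A V5-KLF5 peak covered the whole Klf2 window and another the whole Eps15l1 window, whereas none reached the Klf4 window, where the nearest peak began 104 bases farther upstream. Among all 32851 promoter windows of this length, 32.9% overlapped a V5-KLF5 peak. A GC box was found in 32.7% of them, and peaks overlapped 68.1% of the windows with one and 15.7% of those without. The Klf4 window stood with the minority of the windows that had as many GC boxes: 1344 windows held at least 4 GC boxes, 76.4% of these overlapped a peak, and that of Klf4 was one of 317 that did not.

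Other KLF-type letters were searched on both strands in the same windows. The CACCC box, spelled CACCC, occurred once in the Klf2 window, on the other strand 19 bases before the start, and not in those of Klf4 and Eps15l1. It was present in 52.0% of all windows, of which 38.8% overlapped a peak, against 26.4% of windows without it. The core shared by KLF4 and KLF5 motifs, spelled GGGNGNGG, occurred 4 times in the Klf2 window, 9 times in the Klf4 window and 3 times in the Eps15l1 window. It can share bases with a GC box, and did so in 4, 7 and 3 of these matches at Klf2, Klf4 and Eps15l1. The core was present in 45.9% of all windows, of which 51.8% overlapped a peak, against 16.7% of windows without it. A match of letters describes the sequence and does not show a bound site.

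Depth and calling set what these peaks can show. After duplicate removal the tags numbered 23.2 M (M, mega) for anti-V5 in V5-KLF5 cells, 24.5 M for IgG and 21.8 M for anti-V5 in untagged cells, against inputs of 30.2 M for the V5-KLF5 cells and 22.1 M for the untagged cells. The IgG list held 3 peaks and the untagged list 0, and neither had any in the 3 windows. The pileup is the number of tags, extended to 250 bp, that cover the summit. Fold enrichment is the authors' ratio of pileup + 1 to input background + 1, and the background was recovered from these 2 values. Intervals beside a fold enrichment are the exact Poisson 95% interval of the pileup at that background. They cover counting error of the anti-V5 library only and hold the background fixed. Where the counting error of the input matters, a wider range is given that combines the bounds of the pileup with those of the input tags. It uses the smallest window, of 250 bp, 1 kb or 10 kb, over which the background is a whole number of tags. A background on the genome-wide level was kept fixed, since the list gives no local input count for it.

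Over the 33 peaks, fold enrichment ranged from 2.66 to 17.0 with a median of 5.64, beside a median of 5.18 over all V5-KLF5 peaks. Pileups ranged from 17 to 101, and the median pileup of all peaks was 24. A fold enrichment of at least 10 was reached by 5 of the 33, or 15.2%, against 13.0% of all V5-KLF5 peaks, so the share near these genes was close to the background. The 5 were 3 at Klf4, 1 at Klf2 and 1 at Klf5. By position, 21 of the 33 lay more than 10 kb outside the gene, 8 lay outside within 10 kb and 4 lay inside. The 21 are 63.6% of the peaks, while 86.7% of the 622.7 kb searched lies beyond 10 kb, so the density was 3.89 peaks per 100 kb there and 14.5 per 100 kb nearer in. Over all protein-coding genes, 193864 pairs of a gene and a summit within 100 kb were counted. In 74.9% of these pairs the summit lay more than 10 kb outside the gene. A summit near several genes counts once for each, whereas each of the 33 peaks counts once.

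**Figure D1:**
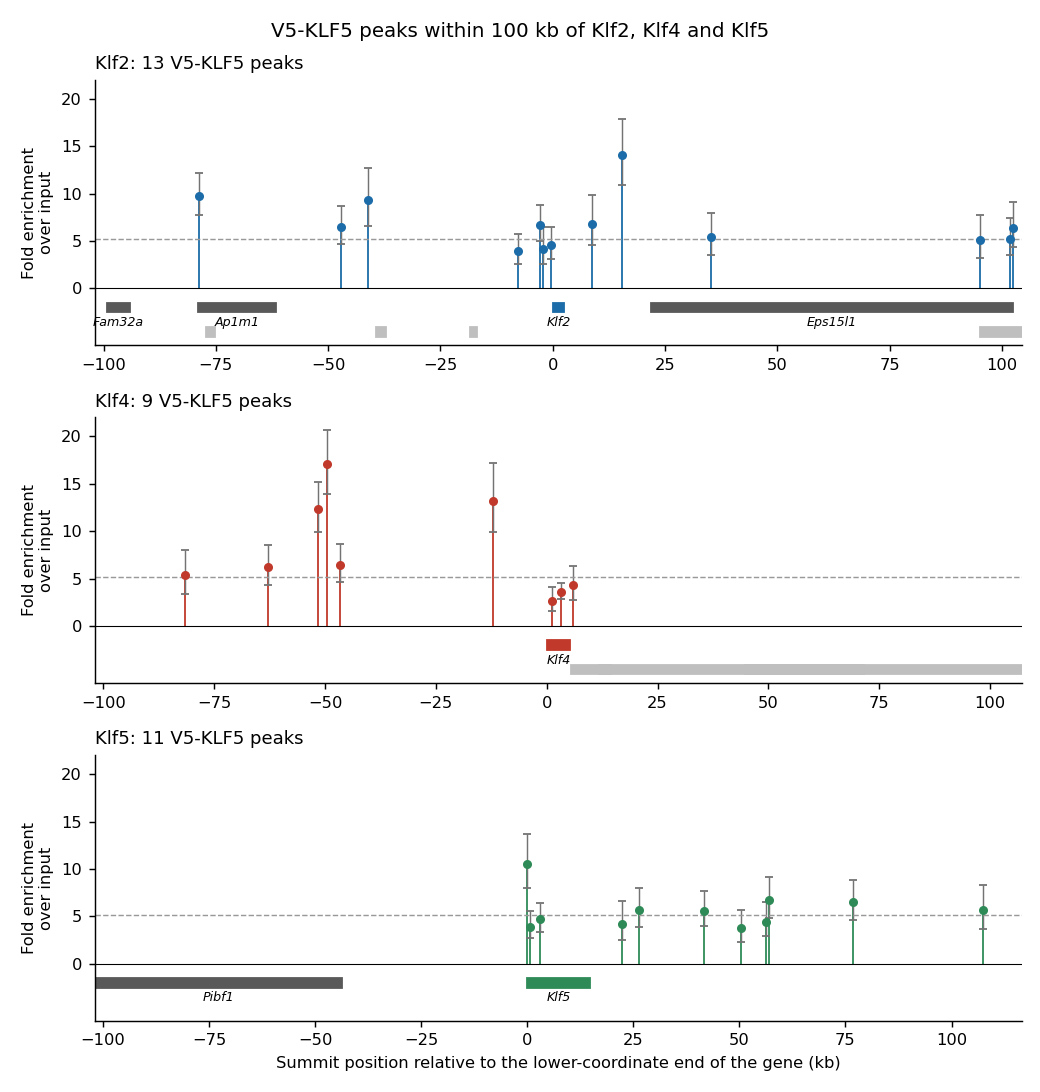
Fold enrichment over input of each V5-KLF5 peak (vertical axis) against the position of its summit in kb from the lower-coordinate end of Klf2, Klf4 or Klf5 (horizontal axis). Error bars are exact Poisson 95% intervals of the pileup at a fixed background, the dashed line is the median of all peaks (5.18), and bars below show the member in colour, other protein-coding genes in dark grey and lncRNA genes in light grey. Klf2 is transcribed left to right and Klf4 right to left. The highest peaks of Klf4 (17.0) and Klf2 (14.1) stand outside the gene, and that of Klf5 (10.6) stands at its lower end.

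Klf2, a KLF member with high expression in naive cells, lies on chromosome 8 at 72319062 to 72321654 on the plus strand and spans 2593 bp. Its 13 peaks (exact Poisson 95% interval 6.92 to 22.2) all lay outside the gene. They had a median fold enrichment of 6.41 and covered 7.46 kb, with 7 upstream of the start and 6 downstream of the end. The window also holds 3 other protein-coding genes, namely Fam32a, Ap1m1 and Eps15l1.

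The strongest Klf2 peak lay at chr8:72334222-72334769, 12.8 kb beyond the end of the gene and in the interval between Klf2 and Eps15l1. It had a pileup of 67 over a background of 3.83, a fold enrichment of 14.1 (10.9 to 17.8). By gene ends its summit was nearer to Eps15l1, which encodes a protein of the endocytic machinery, than to Klf2. The near end of Eps15l1, 6529 bp away, is its transcription end, and its promoter lies at the far end. The start of Klf2 lay 15.4 kb from the summit and was the nearer of the 2 starts. The only other peak in this interval, at chr8:72327671-72328081 and 6210 bp beyond the end of Klf2, had a pileup of 27 and a fold enrichment of 6.83 (4.59 to 9.83). The intervals of the 2 peaks did not overlap at these backgrounds, but with the error of the 5 input tags per 250 bp behind the stronger one its range is 5.32 to 38.4 and includes the weaker.

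Upstream of Klf2, 4 peaks lay within 10 kb of the start, spread over 7.47 kb with gaps of at most 4.99 kb between neighbouring summits. The peak over the promoter, at chr8:72318631-72319482, covered the start site and the whole printed window, with its summit 275 bp upstream. Its pileup was 28 over a background of 5.37, a fold enrichment of 4.55 (3.08 to 6.51), below the median of all peaks by value but with an interval that includes it. The highest of the 4, at chr8:72316075-72316675 and 2751 bp upstream, had a pileup of 52 and a fold enrichment of 6.71 (5.04 to 8.76). The peaks at 2092 and 7742 bp upstream had pileups of 18 and 24 and fold enrichments of 4.14 and 3.93. All 4 intervals overlapped one another, so their order was not resolved at this depth.

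Farther upstream, the peak at chr8:72239483-72240719 had its summit inside Ap1m1, which encodes an adaptor subunit of clathrin-coated vesicles. The summit lay 351 bp from the lower-coordinate end of Ap1m1, its end farther from Klf2, and 78.7 kb from Klf2. This peak had the highest pileup of the Klf2 window, 76, over a background of 6.90, which gave a fold enrichment of 9.75 (7.71 to 12.2). The peak at chr8:72277687-72278085, 41.2 kb upstream, reached a like fold enrichment of 9.27 (6.60 to 12.7) from a pileup of 37, because its background was 3.10. The remaining distal peaks, 1 upstream and 4 downstream, had fold enrichments from 5.12 to 6.44. The last of them, at chr8:72421194-72421778, covered the Eps15l1 promoter window printed above, for which it was singled out after its values were seen, and had a pileup of 30 and a fold enrichment of 6.41 (4.39 to 9.07).

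Of the 13 Klf2 peaks, 8 were nearer to another protein-coding gene, 3 to Ap1m1 and 5 to Eps15l1. Nearness was measured to the body of a gene or its closer end, whether start or transcription end. Counting only peaks whose nearest protein-coding gene is Klf2 left 5 peaks, of which the strongest had a fold enrichment of 6.83.

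Klf4, whose product serves as a reprogramming factor, lies on chromosome 4 at 55527137 to 55532475 on the minus strand and spans 5339 bp. Its window holds no other protein-coding gene, and the nearest, Rad23b, lies 134.9 kb away. Of its 9 peaks (4.12 to 17.1), 6 lay downstream of the gene, 2 inside and 1 upstream. The upstream side, covered almost throughout by the lncRNA gene Gm12506, held a single peak. Its summit lay near the start of Klf4 and inside Gm12506. The signal was thus concentrated downstream, where 74.9% of the summed pileup of the window lay more than 10 kb beyond the gene.

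The 3 strongest peaks of Klf4 were all downstream and distal. The strongest of the 33 peaks lay at chr4:55477140-55478167, 49.6 kb beyond the end of the gene. Its pileup was 101 over a background of 4.98, a fold enrichment of 17.0 (13.9 to 20.7), and 2.78% of all V5-KLF5 peaks were at least as strong. A neighbour at chr4:55475263-55475913 had a pileup of 87 and a fold enrichment of 12.3 (9.91 to 15.2). Another peak of the same group, at chr4:55480128-55480772 and described after its values were seen, had a pileup of 40 and a fold enrichment of 6.44 (4.65 to 8.71). These 3 summits span 4.90 kb and together held 50.7% of the summed pileup of the window, in which all 9 peaks covered 5.41 kb.

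Closer to Klf4, the peak at chr4:55514687-55515283 lay 12.2 kb beyond the end of the gene. It had a pileup of 53 over a background of 3.10, a fold enrichment of 13.2 (9.93 to 17.2) whose interval overlapped those of the 2 strong peaks farther downstream. The other downstream peaks, 62.8 and 81.7 kb beyond the end, had fold enrichments of 6.22 and 5.37.

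At the Klf4 gene itself the enrichment over input was low. The peak 565 bp upstream of the start, at chr4:55532829-55533458, had a pileup of 23 and a fold enrichment of 4.29 (2.78 to 6.34). The peak inside the gene at chr4:55528192-55528441 had a pileup of 18 over a background of 6.13, and its fold enrichment of 2.66 (1.64 to 4.13) was the lowest of the 33. Nearly every other peak was stronger, since 99.5% of all V5-KLF5 peaks were at least as strong. At fixed backgrounds the intervals of all 3 peaks at the gene lay below those of the 3 strongest distal peaks. With the input error added, the 2 peaks inside the gene (up to 8.07 and 6.84) still lay below the distal peak of 17.0 (from 10.0). They also lay below the distal peak of 13.2 (from 9.93), but its background was on the genome-wide level and stayed fixed. Its bound therefore holds no input error. The distal peak of 12.3 (from 5.40) and the peak upstream of the start (up to 13.2) were no longer separate from the others.

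The second peak inside Klf4, at chr4:55530298-55531100 and 2011 bp downstream of the start, combined a high pileup with a high input. Its pileup of 72 was the third highest of the Klf4 window, yet its fold enrichment was 3.62 (2.84 to 4.55). The recovered background was 19.2, which is 6.19 times the genome-wide level and the 18th highest of 45366 peaks on assembled chromosomes. It corresponds to 25 input tags per 250 bp (exact Poisson 95% interval 16.2 to 36.9), where the genome mean is 4.04. The same value would also fit 100 tags over 1 kb (81.4 to 121.6), where the mean is 16.2, and the list does not say which window set it. The 250-bp interval allows a background of 12.4 to 28.3, which widens the fold enrichment to between 1.96 and 6.84. Of the 18 peaks with a background this high, 6 lay inside a protein-coding gene, this one included. The share of all peaks inside such genes is not given here, so the 6 cannot be read as many or few. Why the input was raised here was not tested.

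Klf5, the gene of the tagged factor, lies on chromosome 14 at 99298691 to 99313412 and spans 14.7 kb. Its 11 peaks (5.49 to 19.7) were again one-sided: 8 lay beyond the higher-coordinate end, 2 inside and 1 just beyond the lower-coordinate end. The 43.8 kb between Klf5 and Pibf1, its nearest protein-coding neighbour, held no peak beyond that one. The window differed from those of Klf2 and Klf4 in where its strongest peak stood.

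The strongest Klf5 peak, at chr14:99298213-99298911, had its summit 157 bp outside the lower-coordinate end. It had a pileup of 56 over a background of 4.39 and a fold enrichment of 10.6 (8.03 to 13.7). The 2 peaks inside the gene, at chr14:99298975-99299582 and chr14:99301517-99301925, had pileups of 30 and 40 and fold enrichments of 3.92 (2.69 to 5.55) and 4.73 (3.41 to 6.40). Both intervals lay below that of the peak at the end, but with the input error added they reach 10.6 and 11.9 and overlap its range of 7.22 to 15.2. The 3 peaks span 3.19 kb and held 35.6% of the summed pileup of the window.

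Distal peaks of Klf5 were of middling strength. The peak 7501 bp beyond the higher-coordinate end, at chr14:99320806-99321129, had a pileup of 17 and a fold enrichment of 4.23 (2.56 to 6.63). The highest of the distal peaks lay at chr14:99355276-99355933, 42.2 kb out, with a pileup of 38 and a fold enrichment of 6.73 (4.82 to 9.18). The peak at chr14:99375185-99375619, 62.0 kb out, had the same pileup and a fold enrichment of 6.52 (4.66 to 8.88). The remaining 5 distal peaks, from 11.5 to 92.6 kb out, had fold enrichments between 3.75 and 5.71. No distal peak of Klf5 reached a fold enrichment of 10, and their intervals overlapped one another.

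The input background bears on every fold enrichment above. A background on the genome-wide level of 3.10, which is the lowest that the caller uses, was found at 5 of the 33 peaks, or 15.2%, against 37.2% of all V5-KLF5 peaks. The 5 were 3 at Klf2, 2 at Klf4 and 0 at Klf5. Median backgrounds were 3.83 at Klf2, 4.98 at Klf4 and 4.60 at Klf5, beside 3.45 over all peaks. The 2 peaks inside Klf5 had backgrounds of 6.90 and 7.67, while the other 9 of that window ranged from 3.26 to 5.75. Those 2 backgrounds equal 9 and 10 input tags per 250 bp, with lower counting bounds of 4.12 and 4.80 beside the genome mean of 4.04. They also equal 36 and 40 tags per 1 kb, with lower bounds of 25.2 and 28.6 beside a mean of 16.2. The list does not say which window set them. A background of at least 6.13 was found at 7 of the 33 peaks, against 6.1% of all V5-KLF5 peaks. Besides the 2 inside Klf5 they were Klf2 peaks, at 6.90 each, and Klf4 peaks, from 6.13 to 19.2. The cells carried a V5-KLF5 construct whose sequence the labels do not give, and its part in the input at Klf5 was not tested.

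**Figure D2:**
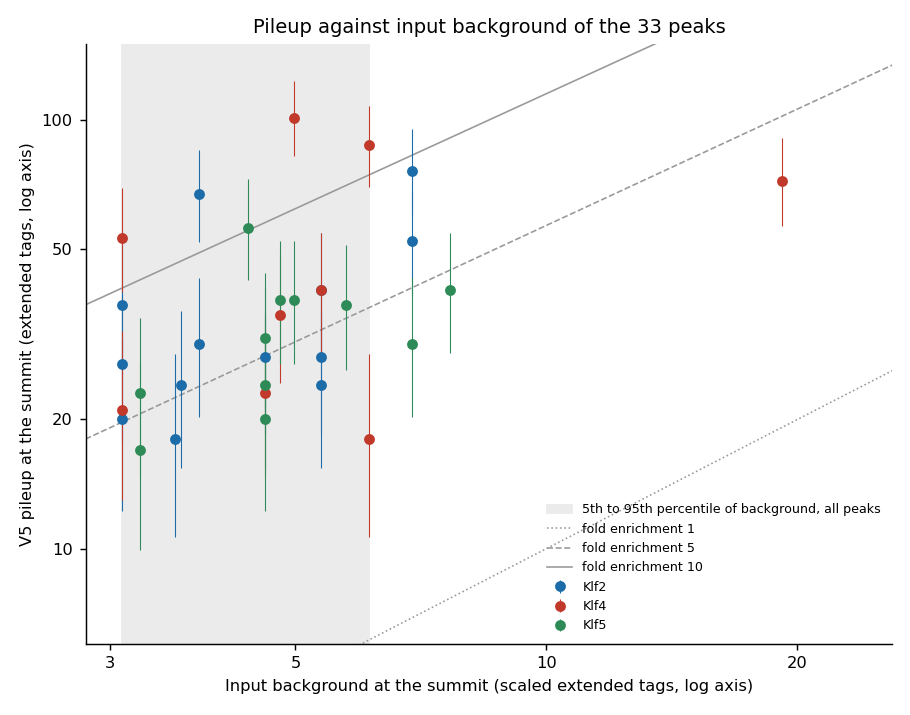
Pileup at the summit (vertical, extended tags, log axis) against input background (horizontal, scaled extended tags, log axis) for the 33 peaks, coloured by gene. Error bars are exact Poisson 95% intervals of the pileup, grey lines mark fold enrichments of 1, 5 and 10, and the shaded band is the 5th to 95th percentile of background over all peaks. One Klf4 peak, with a background of 19.2, stands far to the right of the band, whose upper edge is 6.13.

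Ordered by their strongest peak, the genes ran Klf4 (17.0), Klf2 (14.1) and Klf5 (10.6). Neighbours in this order had overlapping intervals. Those of Klf4 (13.9 to 20.7) and Klf5 (8.03 to 13.7) were separate only with the background held fixed, and with the error of the 26 and 229 input tags behind them the ranges were 10.0 to 29.1 and 7.22 to 15.2. The order was therefore not resolved at this depth. Within 10 kb of the genes the order was turned round, with Klf5 at 10.6, Klf2 at 6.83 and Klf4 at 4.29. There the interval of Klf5 overlapped that of Klf2 (4.59 to 9.83) and, with the input error added, the range of Klf4 (1.41 to 13.2). The share of summed pileup more than 10 kb from the gene was 74.9% at Klf4, 68.4% at Klf2 and 59.6% at Klf5. The edge of the window decided 1 close case, the Klf2 peak over the Eps15l1 promoter, which straddled the edge. Counting only peaks wholly within the window left 12 at Klf2. The outermost summits inside lay 99.9, 81.7 and 92.6 kb from Klf2, Klf4 and Klf5, and the nearest outside lay 117.1, 143.3 and 190.8 kb away, with fold enrichments of 3.66, 3.99 and 4.82.

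Among all 21887 protein-coding genes, none of the 3 was extreme in its number of peaks. A summit within 100 kb was found at 3 of 3 members against 85.9% of protein-coding genes, and a summit within 10 kb at 3 of 3 against 70.5%. At least as many summits as Klf2 were found at 27.3% of genes, as Klf5 at 34.1% and as Klf4 at 42.6%. The median gene had 7. Each window includes the gene body, so longer genes were searched over more sequence, and these shares are not corrected for gene length. A strongest peak at least as high was found at 19.5% of genes for Klf4, 29.7% for Klf2 and 48.9% for Klf5.

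The order of the 3 genes by number of summits followed the number of their coding neighbours, and that by strongest peak did not. The intervals of the 3 summit numbers overlapped one another, so that order was not resolved either. Whether neighbours bear on it was not tested. Klf4 has 0 other protein-coding genes within 100 kb, Klf5 has 1 and Klf2 has 3, while the median gene has 4. Among the 1181 genes with 0 such neighbours the median was 1 summit, and 99 of them, or 8.38%, had as many as the 9 of Klf4. The share with as strong a peak as Klf4 was 5.93%. Among genes with 1 neighbour, 11.4% had as many summits as Klf5, and among genes with 3 neighbours, 14.2% had as many as Klf2. The corresponding shares with as strong a peak were 28.4% for Klf5 and 25.7% for Klf2. This grouping by neighbours was chosen after the data were seen.

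**Figure D3:**
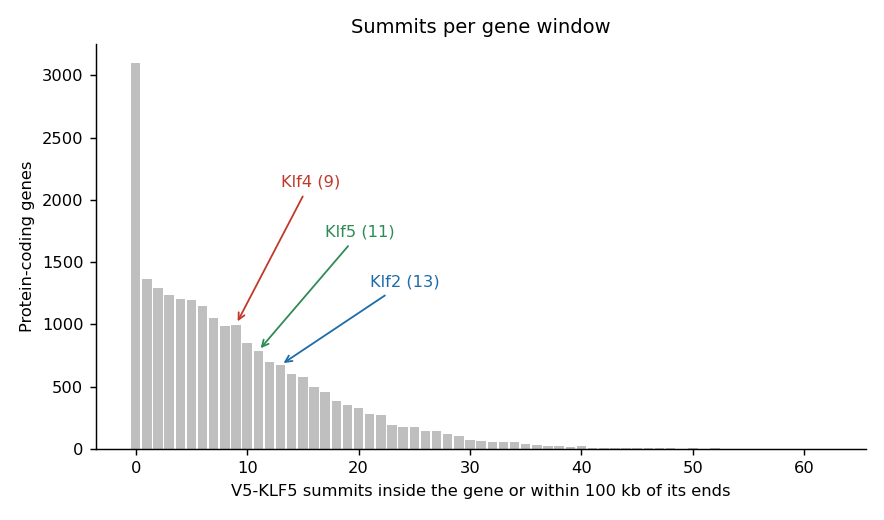
Number of protein-coding genes (vertical) by the number of V5-KLF5 summits inside the gene or within 100 kb of its ends (horizontal). Klf4 with 9, Klf5 with 11 and Klf2 with 13 summits lie above the median of 7 and well inside the distribution.

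Beside the rest of the family, the 3 genes had summit numbers and peak strengths within its range. All 14 other KLF genes had a summit within 100 kb, with a median of 10.5 summits, beside 11 for the 3 members. The strongest peak had a median fold enrichment of 14.1 over the 3 members, 17.6 over the 14 other KLF genes and 15.0 over the 9 SP genes, which encode related GC-box binding proteins. It was 11.7 over all protein-coding genes with a summit. Of the other KLF genes, 8 had a stronger peak than Klf4, 9 than Klf2 and 11 than Klf5. The range ran from 4.64 at Klf6 to 37.1 at Klf3. A peak with a fold enrichment of at least 10 within 100 kb was found at 3 of 3 members, 11 of 14 other KLF genes and 8 of 9 SP genes. The share over protein-coding genes was 53.4%. Windows of nearby genes can overlap. Sp2 and Sp6, both on chromosome 11, had the same strongest value of 15.95, so the same peak may count for both.

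Genes of the naive network that works with the KLF factors were counted in the same way. All 17 had a summit within 10 kb, against 70.5% of protein-coding genes, and 13 had a peak with a fold enrichment of at least 10 within 100 kb, against 53.4%. The median of their strongest peaks was 17.9, from 5.37 at Jak1, a kinase of the LIF pathway, to 28.5 at Esrrb, an orphan nuclear receptor of naive cells. Of these genes 10 had a stronger peak than Klf4, 11 than Klf2 and 13 than Klf5. Stat3, the transducer of the LIF signal, had 8 summits and a strongest peak of 8.76.

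The strongest peak lay more than 10 kb outside the gene for 2 of the 3 members, Klf2 and Klf4. The same held for 9 of 14 other KLF genes, 6 of 9 SP genes and 6 of 17 naive network genes, against 72.5% of protein-coding genes with a summit within 100 kb. With 3 members, their share cannot be told from that background.

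By number of summits and strongest fold enrichment, the gene most like Klf5 among the 23 other KLF and SP genes was Sp3, with 12 summits and 10.8, followed by Klf12, with 10 and 11.1. The genes most like Klf2 were Klf15 (13 summits, 17.3) and Sp3. Those most like Klf4 were Sp8 (8 summits, 15.0) and Klf8 (6 summits, 19.8). Likeness was the distance in these 2 measures, each divided by its SD over the KLF and SP genes, in 1 library. The distances were 0.124 and 0.150 for Klf5, 0.400 and 0.526 for Klf2, and 0.270 and 0.456 for Klf4.

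**Figure D4:**
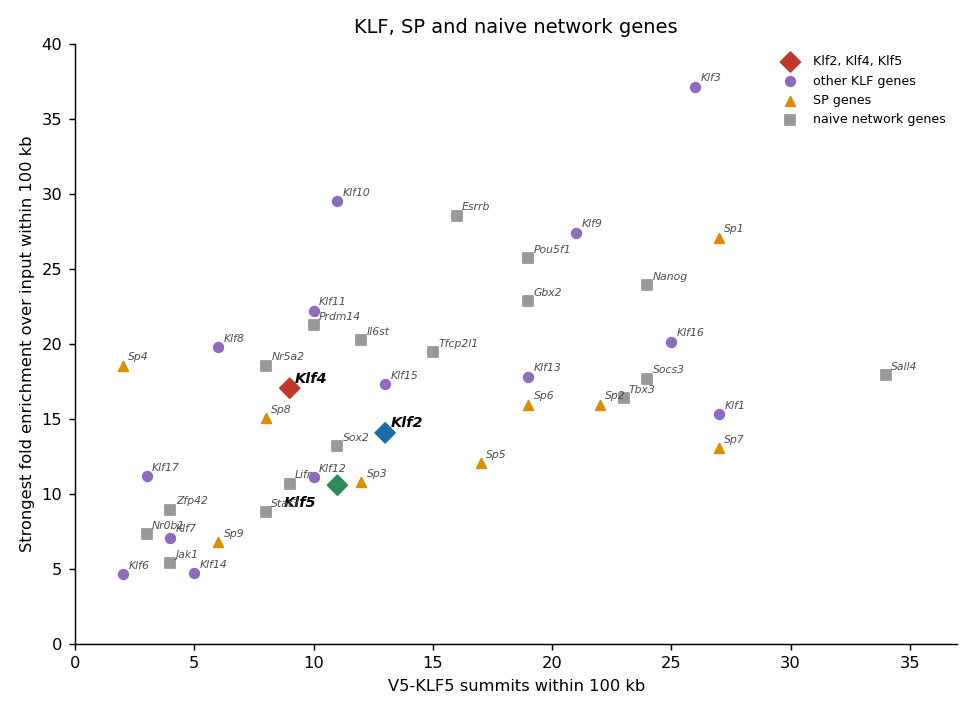
Strongest fold enrichment within 100 kb (vertical) against the number of V5-KLF5 summits within 100 kb (horizontal) for Klf2, Klf4 and Klf5 (diamonds), other KLF genes (circles), SP genes (triangles) and naive network genes (squares). The 3 members lie between 9 and 13 summits and between 10.6 and 17.0, inside the range of the other KLF genes (2 to 27 summits, 4.64 to 37.1).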

How the data were processed

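Anti-V5 and IgG ChIP-seq peak lists of mouse ES cells overexpressing V5-KLF5, and the list of untagged ES-D3 cells, were used as deposited. Per the file headers, MACS2 2.1.0.20140616 called each list on 1 library against the input of the same cells, with tags of 51 bp extended to 250 bp, 1 tag per position kept, an effective genome size of 1.87 Gb and a q-value cutoff of 0.05. The submitters' processing notes name mm10 and Bowtie 0.12.8. The sources used here do not give the handling of multiply mapping reads, which could change pileups at repeated sequence.

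The authors deposited for each peak a summit, a pileup signal, −log10 p-values and q-values, and a fold enrichment (a ratio over input). From these the input background was computed as (pileup + 1)/fold − 1. Of 28489 backgrounds above the genome-wide level, 99.9965% were whole numbers of input tags over 10 kb within 0.02 tag, at the scale of 0.767. Some are whole over 250 bp or 1 kb too, so the window that set a background is often not known. Kept tags were 23.2 M (mega) (anti-V5, V5-KLF5 cells), 24.5 M (IgG) and 21.8 M (anti-V5, untagged cells). A peak was assigned by its summit to RefSeq gene ends of GRCm38.p6, and 45366 peaks on assembled chromosomes were used for ranks. All 40 symbols of the 3 gene lists matched. Shares of genes and promoters are descriptions. Exact Poisson 95% intervals came from scipy 1.17.1. The counting of summits per window and the recovery of the background were tested on simulated data, and the intervals were not. Alternatives were other windows, stricter q-value cutoffs, other assignment rules and pileup as strength.

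Each peak within 10 kb of a member, each with a fold enrichment of at least 10 and the 3 strongest of each window were named, with the protein-coding gene at or nearest to them. The members and lists were chosen with earlier results of these data known.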

Additional observations from a re-analysis of the deposited data

How the results depend on the processing

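Of 63 alternative values for 12 results, 36 stayed within the counting interval or the size limit set for them and 27 moved. A window of 10 kb left 5, 3 and 4 peaks at Klf2, Klf4 and Klf5 and took the strongest fold enrichment to 6.83 at Klf2 and 4.29 at Klf4. Counting peaks by their nearest protein-coding gene left 5 at Klf2, with a strongest of 6.83, and choosing the Klf2 peak by pileup gave 9.75. A −log10 q-value of at least 10 left 7 peaks at Klf5, counted as moved although 7 lies inside the counting interval of 5.49 to 19.7. The same cutoff left 9 at Klf2 and 6 at Klf4, which were not counted as moved.

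The shares of genes with as many summits as Klf2, Klf4 and Klf5 were 22.2%, 39.1% and 22.2% in a window of 50 kb, and 14.3%, 34.1% and 22.1% in one of 10 kb. Without chromosomes X and Y they were 28.9%, 44.8% and 36.0%. With a −log10 q-value of at least 10 they were 15.7%, 30.7% and 24.7%, and with peaks of a fold enrichment of at least 10 they were 53.4%, 16.5% and 53.4%. Among genes with the same number of coding neighbours, an alternative chosen after seeing the data, they were 14.2%, 8.38% and 11.4%. The cause of these shifts was not tested. No paired analysis was possible because each group has 1 library and no result comes from a test.

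The library depth limits what was called: at the genome-wide background the lowest pileup of any peak was 11. Signal of the controls under that limit was not examined. Summits were placed by gene ends, and peaks assigned by distance need not act on the nearest gene.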
